A study of Mus musculus with 10 samples.

Results

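The genes described here encode, in the nucleus, the subunits of the mitochondrial machinery of oxidative phosphorylation. They were chosen by name: every probe set that the platform's gene table pairs with exactly 1 symbol beginning with Ndufa, Ndufb, Ndufc, Ndufs, Ndufv, Uqcr, Cox4, Cox5, Cox6, Cox7, Cox8 or Atp5. The rule caught 110 probe sets of 85 genes, out of 19938 genes measured, and each gene was read from its probe set with the highest mean. By respiratory complex these were 34 genes of complex I, 7 complex I assembly factors with names beginning Ndufaf, 8 of complex III, 19 of complex IV and 17 of complex V. Ndufa4 and Ndufa4l2 are counted with complex IV, since the Ndufa4 protein is now known as a subunit of that complex, and Cox7a2l is a supercomplex factor rather than a catalytic subunit. The Ndufaf genes encode proteins that help to build complex I and do not remain in it.

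RNA from the forebrain of 10 mouse embryos at E12.5 was measured on 1 Affymetrix whole-transcript array per embryo. In 5 embryos, titled dtg and annotated as transgenic, a constitutively active allele of FoxO3 stood under the CaMKIIa promoter, which the labels describe as specific to the forebrain. The other 5, titled stg, are annotated as control. All embryos had a mixed CD1/NMRI background, came from 2 dams dissected 12 days after the plug, and gave part of the forebrain for RNA, cut away from most of the thalamus. The labels do not spell out dtg and stg, do not name the transgenes, if any, of stg embryos, and do not assign embryos to dams, so litter and group cannot be told apart. The comparison asks how an active FoxO3 allele alters forebrain transcripts at this age.

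Oxidative phosphorylation couples the oxidation of NADH and succinate to ATP synthesis. Complex I takes electrons from NADH, complex II from succinate, complex III passes them to cytochrome c, complex IV hands them to oxygen, and complex V, the ATP synthase, uses the resulting proton gradient. Most subunits are nuclear-encoded and imported, while a few core subunits come from mitochondrial DNA. Neural progenitors rely strongly on glycolysis, and neurons depend more on oxidative phosphorylation. FOXO factors are known to act on genes of metabolism and stress resistance.

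The deposited values are log2 intensities, and the arrays were alike, with medians between 5.36 and 5.39 and pairwise correlations between 0.980 and 0.996. Control embryo 5 stood furthest apart, with a mean correlation of 0.985 with the other arrays, while the other 9 lay between 0.992 and 0.993. The forebrain transcription factor genes Lhx2, Emx2 and Six3 read 9.34, 7.35 and 5.91 on average, above the median gene level of 5.69 in each case. Foxo3 read 0.34 higher in dtg than in stg embryos on the log2 scale (limma adjusted p = 0.218). Whether its probes cover the transgene is not given in the sources used here. Camk2a, the gene that gives the promoter its name, had a lower mean in dtg. Its unadjusted p in limma was below 0.05, and it did not pass after adjustment. The number of arrays limits the precision of every value below.

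No member of the set changed between the groups at an adjusted p below 0.05 in limma, where 21 of all genes (0.105%) did. At an unadjusted p below 0.05 there were 4 of 85 members (4.71%), against 7.58% of all genes. Of these 4, Ndufc2, Atp5l and Cox6c had lower means in dtg embryos, 3.53% of members against 3.48% of all genes in that direction. Cox8b had a higher mean, 1.18% of members against 4.1% of all genes. The smallest adjusted p of any member was 0.428, for Ndufc2. The share of members in the lower tail was thus at the background of the arrays, and the share in the upper tail was below it. Arrays were simulated with independent noise for each gene, no effect shared within an embryo, and changed genes drawn from all genes. There the same fit called 0% of genes changed by 0.2 log2 at an adjusted p below 0.05. It called 79.1% of genes changed by 0.5, and neither share is specific to this set. The absence of calls therefore does not show that small changes are absent.

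The differences were small but mostly pointed one way. In 65 of 85 members (76.5%) the mean was lower in dtg than in stg embryos, while 51.9% of all genes were lower. The count of lower members depended on the normalization and was smaller after quantile normalization, as given below. The median log2 difference over the members was -0.040, against -0.0038 over all genes, and the differences ran from -0.21 for Ndufaf6 to 0.18 for Cox8b. Ndufaf6 was the 1 member (1.18%) with an absolute difference above 0.2, a size that 7.97% of all genes exceeded. The median absolute difference of the members, 0.056, was no larger than that of all genes, 0.059. The members also varied little among embryos of a group, with a median within-group SD of 0.095 against 0.12 for all genes. The 95% intervals of the 85 differences together spanned -0.42, the lower limit for Ndufaf6, to 0.36, the upper limit for Cox6a2, on the log2 scale. Each single interval was narrower, such as -0.17 to 0.053 for Atp5b. In bulk RNA, fewer cells of a type and less RNA per cell cannot be told apart.

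**Figure D1:**
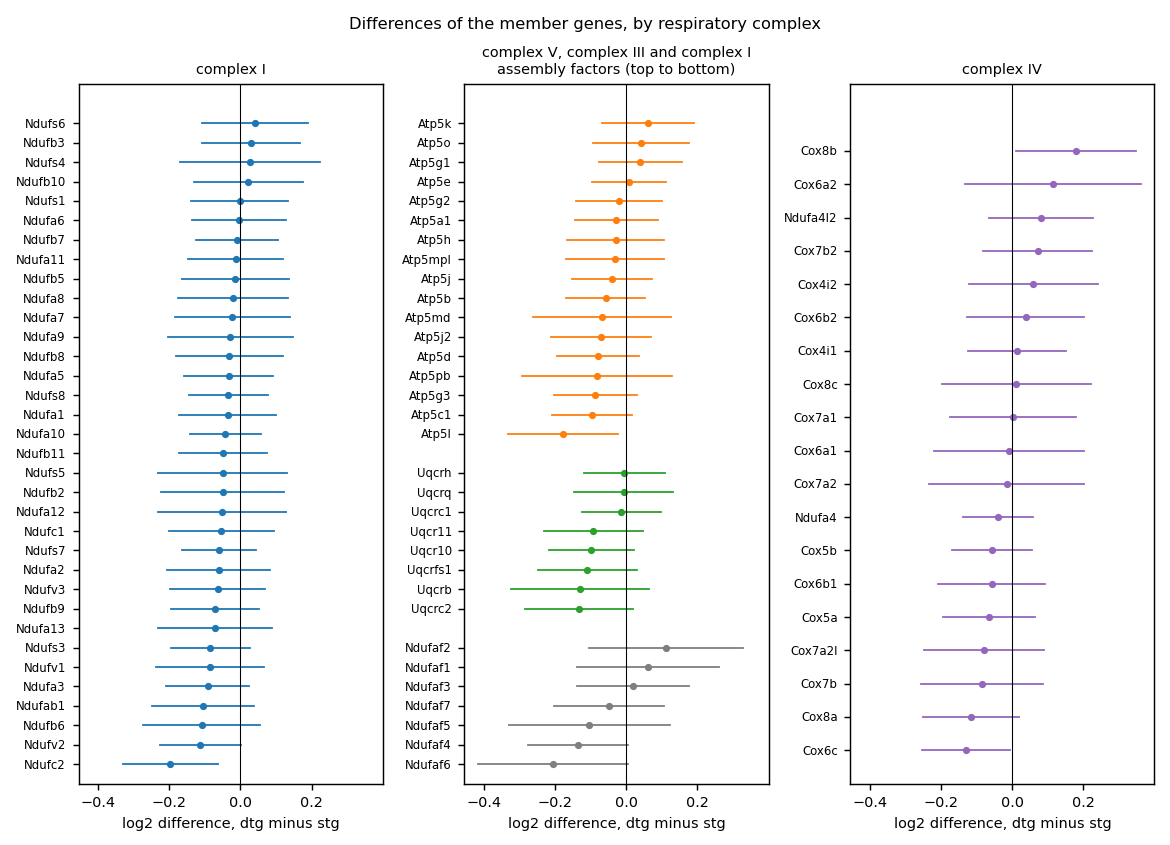
Log2 difference between dtg and stg embryos (n = 5 per group) for each of the 85 genes, as points with 95% intervals from limma, arranged by respiratory complex. Most points lie left of 0, and only the intervals of Ndufc2, Atp5l, Cox6c and Cox8b leave out 0 before adjustment.

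A single embryo carried much of this shift. Transgenic embryo 3 had the lowest value of all 10 embryos in 42 of 85 members, and no other embryo was lowest in more than 8. Over all genes, embryo 3 was lowest in 11.4%, and among genes above the upper quartile of intensity in 19.6%. The 55 members above that quartile were lowest in embryo 3 in 60% of cases. The median deviation of the members from the control mean was -0.14 in embryo 3. It was -0.042 in transgenic embryo 2, -0.027 in embryo 1, 0.0042 in embryo 4 and -0.0011 in embryo 5. The 5 controls lay between -0.025 and 0.015, around a mean that includes their own values, which draws them towards 0. Transgenic embryos 4 and 5 fell within the control range, embryo 1 at its lower edge, and embryos 2 and 3 below it.

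Without transgenic embryo 3, 53 of 85 members (62.4%) were lower, beside 52.9% of all genes, and the median was -0.016. At an unadjusted p below 0.05 there were then 2 members (2.35%), 1 in each direction, beside 5.72% of all genes. This embryo also had the highest mean of the 9 thalamus marker genes, at 7.57, and the highest mean of the 15 pan-neuronal genes, at 8.95. Its mean over 12 measured G2/M genes was 8.13, below all controls, and its erythroid mean over 8 genes, 6.48, was the lowest of all. Transgenic embryo 1 was much alike in these lists, with 7.41 for thalamus, 8.94 for pan-neuronal, 8.01 for G2/M and 6.51 for erythroid genes, while its members deviated by -0.027. The part of these lists in the low values of embryo 3 was not tested.

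**Figure D2:**
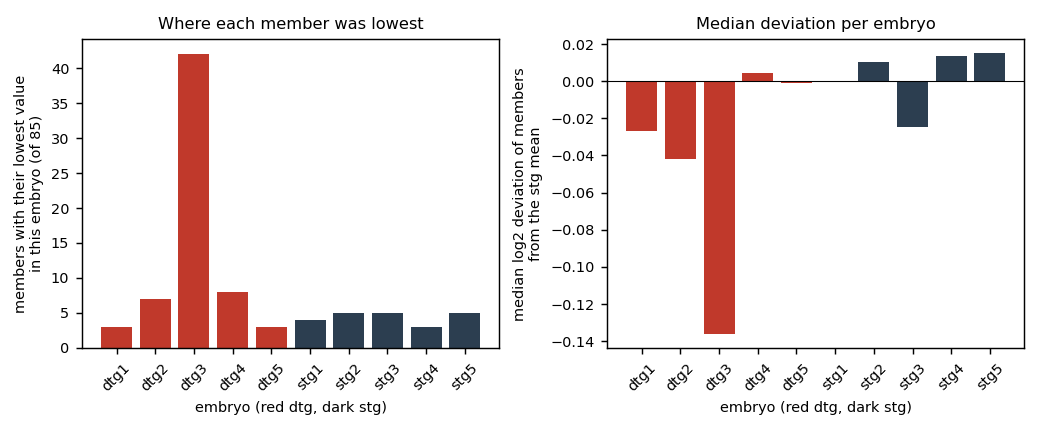
Left, the number of the 85 genes whose lowest value among the 10 embryos fell in each embryo. Right, the median log2 deviation of the 85 genes from the control mean in each embryo. Bars start at 0, red bars are dtg and dark bars stg, and embryo dtg3 stands out with 42 genes and a median of -0.14.

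The marker lists themselves differed between the groups as follows, with no marker at 0. All 9 thalamus genes were higher in dtg, with list means from 6.72 to 7.57 in dtg and from 5.70 to 7.02 in stg. Of 15 pan-neuronal genes 14 were higher, with list means from 8.39 to 8.95 and from 7.48 to 8.68, the lowest belonging to control embryo 5. All 12 G2/M genes were lower, with list means from 8.01 to 8.52 and from 8.41 to 8.61. The 10 radial glia genes divided 5 and 5, with list means from 8.99 to 9.14 and from 9.06 to 9.13. Erythroid list means ran from 6.48 to 7.32 and from 6.51 to 7.70, mesenchyme means from 6.52 to 7.23 and from 6.26 to 8.33, and endothelial means from 6.31 to 6.65 and from 6.29 to 6.83. No gene of these lists passed an adjusted p of 0.05 in limma. An unadjusted p below 0.05 was found for 7 of 9 thalamus genes, all higher, and 5 of 12 G2/M genes, all lower. It was also found for 2 of 10 radial glia genes, 1 in each direction, beside 7.58% of all genes. The part of these lists in the values of the members was not tested.

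Complex I, the entry point of NADH electrons, had 30 of 34 members lower, with a median log2 difference of -0.045. Without transgenic embryo 3 the count was 23 of 34 and the median -0.016. Ndufc2, an accessory subunit of the membrane arm, gave the smallest p of all members. Its log2 intensity was 8.96, 8.91, 8.80, 8.93 and 8.96 in transgenic embryos 1 to 5 and 9.01, 9.15, 8.997, 9.13 and 9.24 in control embryos 1 to 5. All transgenic embryos lay below all controls. The difference was -0.20 ± 0.061 (SE, n = 5 per group), or 0.873-fold (limma adjusted p = 0.428). Leaving out any 1 embryo kept it between -0.22 and -0.16.

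Ndufs3, a core subunit, was the other member whose groups did not overlap. These 2 of 85 members (2.35%) stand beside 1.6% of all genes without overlap. Both were lower in dtg, as were 0.622% of all genes, and no member was separated upward, beside 0.978% of all genes. Ndufs3 was singled out after its values were seen. It read 9.26, 9.20, 9.09, 9.28 and 9.28 in transgenic and 9.30, 9.30, 9.29, 9.31 and 9.33 in control embryos. The controls were tightly grouped, with an SD of 0.017, while transgenic embryo 3 was well below the rest. The difference of -0.084 ± 0.051 did not pass (limma adjusted p = 0.777), and it was -0.051 without that embryo.

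Ndufv2, an iron-sulfur subunit of the NADH-oxidizing tip of the enzyme, read 8.63, 8.60, 8.47, 8.60 and 8.65 in transgenic and 8.70, 8.64, 8.71, 8.78 and 8.67 in control embryos. The groups met at the edge, and the difference was -0.11 ± 0.052 (limma adjusted p = 0.667). Among the other core members, Ndufs1, the largest iron-sulfur subunit, differed by -0.0017 ± 0.062, with a 95% interval of -0.14 to 0.13, and its sign changed in some alternative fits. Ndufv1, which holds the flavin that accepts electrons from NADH, differed by -0.085 ± 0.070, by -0.13 without transgenic embryo 4, by -0.056 without embryo 2 and by -0.054 without embryo 3. The accessory subunit gene Ndufs6 had the highest difference of the complex, 0.042 ± 0.068, and transgenic embryo 3 was again its lowest embryo, at 7.58.

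The 7 assembly factors were divided, 4 lower and 3 higher, with a median of -0.048 and a wider within-group SD, 0.16. That median rested on single embryos. It was -0.0098 without transgenic embryo 2, -0.026 without embryo 3, -0.019 without control embryo 4, -0.029 without control embryo 5 and -0.078 without transgenic embryo 1. Ndufaf6 read 4.77, 4.69, 4.35, 4.87 and 4.68 in transgenic and 5.02, 4.77, 4.86, 4.74 and 4.9998 in control embryos. All transgenic values were below the control mean, but the ranges overlapped. Its difference was -0.21 ± 0.096, the lowest of any member (limma adjusted p = 0.67), and -0.12 without transgenic embryo 3. Ndufaf4 differed by -0.14 ± 0.065 and Ndufaf2 by 0.11 ± 0.099, and neither passed (adjusted p = 0.675 and 0.855). Ndufaf2 was at 0.057 without transgenic embryo 5, 0.061 without control embryo 2 and 0.18 without control embryo 1.

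Complex III was the only complex with every member, 8 of 8, lower in dtg, and its median of -0.095 was the lowest of the complexes. None passed an unadjusted p of 0.05. Uqcrc2, a core protein of the matrix side, read 9.45, 9.28, 9.27, 9.56 and 9.49 in transgenic and 9.43, 9.56, 9.53, 9.65 and 9.55 in control embryos. Transgenic embryos 2 and 3 were low and the other 3 lay within the control range. The difference was -0.13 ± 0.070 (limma adjusted p = 0.721). The small subunit gene Uqcr10 differed by -0.098 ± 0.055 and the Rieske iron-sulfur protein gene Uqcrfs1 by -0.11 ± 0.064. The core protein gene Uqcrc1 and the hinge protein gene Uqcrh differed by -0.014 ± 0.051 and -0.0052 ± 0.052, and both turned positive in some alternative fits. Without transgenic embryo 3 the count was 6 of 8 and the median -0.067; without control embryo 5 it was 5 of 8 and -0.10.

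Complex V, the ATP synthase, had 13 of 17 members lower, with a median of -0.039. Leaving out transgenic embryo 3 gave 10 of 17 and a median of -0.014. Atp5l, subunit g of the membrane part, read 7.38, 7.41, 7.28, 7.58 and 7.45 in transgenic and 7.48, 7.55, 7.58, 7.78 and 7.60 in control embryos. The groups overlapped through transgenic embryo 4. The difference was -0.18 ± 0.070 (limma adjusted p = 0.597). The platform table gives 6 probe sets for this gene, and all were lower in dtg, by -0.12 to -0.18. Such probe sets may read near-identical copies, so they are not independent.

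Atp5b, the catalytic beta subunit, read 11.38, 11.38, 11.29, 11.41 and 11.44 in transgenic and 11.41, 11.50, 11.38, 11.49 and 11.40 in control embryos. The ranges overlapped, and the difference was -0.057 ± 0.051, with a 95% interval of -0.17 to 0.053, or -0.034 without transgenic embryo 3. Atp5a1, the alpha subunit, differed by -0.028 ± 0.054, and by 0.020 after quantile normalization. The gamma subunit gene Atp5c1 differed by -0.096 ± 0.052 (limma adjusted p = 0.73), with controls between 10.63 and 10.68 and transgenic embryos between 10.45 and 10.64. The highest difference of the complex was 0.061 ± 0.059, for Atp5k, subunit e.

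**Figure D3:**
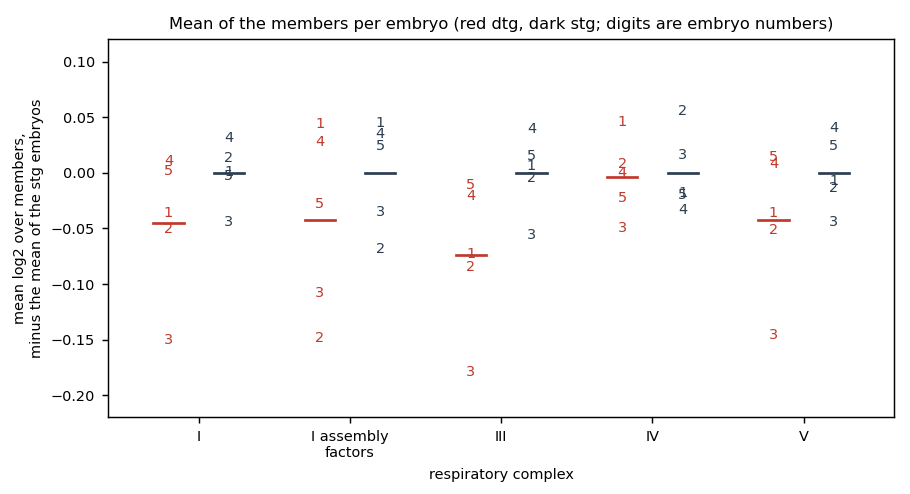
Mean log2 intensity over the members of each complex in each embryo, minus the mean of the 5 stg embryos, with digits for the embryo numbers, red for dtg and dark for stg. Horizontal bars are group means. Transgenic embryo 3 is lowest in complexes I, III, IV and V, and the bar of complex IV lies at about the control level.

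Complex IV, cytochrome c oxidase, was the exception in direction, with 10 members lower and 9 higher and a median of -0.0080. The median was 0.0030 without transgenic embryo 2, 0.0056 without control embryo 2 and as low as -0.035 without transgenic embryo 1. This complex has subunits with alternative forms made by separate genes, some found in most tissues and some restricted to heart and skeletal muscle, testis or other sites. All 8 forms grouped here as tissue-restricted (Cox4i2, Cox6a2, Cox6b2, Cox7a1, Cox7b2, Cox8b, Cox8c and Ndufa4l2) had higher means in dtg, with a median of 0.066. Of the other 11 members 10 were lower, with a median of -0.057, Cox4i1 being the exception at 0.013 ± 0.063. This division was made with the values in view, so it is a description. Ndufa4l2 was placed with the tissue-restricted forms as a relative of Ndufa4. It was not among the isoform sets chosen for naming, and the label may not suit it. The tissue-restricted forms had mean log2 intensities between 3.32 and 5.71 and the other members between 7.85 and 10.01. Among all genes, the share lower in dtg was 55.5% above the upper quartile of intensity and 50.3% to 51.2% in the bands below it. Probes differ in affinity and the table holds no detection call, so whether the dim forms are expressed is not shown. Over the fits that left out 1 embryo, 6 to 8 of the 8 forms were higher and 8 to 11 of the other 11 lower. Without transgenic embryo 3 the medians were 0.034 for the forms and -0.028 for the others, and without control embryo 4 that of the forms was 0.040.

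Cox8b, the muscle form of the smallest subunit, read 4.50, 4.66, 4.48, 4.51 and 4.52 in transgenic and 4.48, 4.43, 4.49, 4.23 and 4.13 in control embryos. Control embryos 4 and 5 were low and the other 3 lay close to the transgenic values. The difference was 0.18 ± 0.077 (limma adjusted p = 0.627) and 0.13 without control embryo 5. Its widely expressed counterpart Cox8a read 8.16, 8.13, 8.15, 7.92 and 8.10 in transgenic and 8.19, 8.24, 8.19, 8.10 and 8.31 in control embryos. All transgenic values were below the control mean, and the difference was -0.11 ± 0.062 (adjusted p = 0.732), or -0.072 without transgenic embryo 4. Cox6c read 9.995, 9.88, 9.84, 10.02 and 9.98 in transgenic and 9.97, 10.07, 10.05, 10.16 and 10.12 in control embryos. The overlap came from control embryo 1, and the difference was -0.13 ± 0.057 (limma adjusted p = 0.642).

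The remaining pairs showed smaller differences, none of which passed. Cox4i1, the common form of the regulatory subunit, and Cox4i2, its lung form, differed by 0.013 ± 0.063 and 0.060 ± 0.083. Cox6a1 and the muscle form Cox6a2 differed by -0.0080 ± 0.096 and 0.12 ± 0.11. Cox6b1 and the testis form Cox6b2 differed by -0.057 ± 0.069 and 0.038 ± 0.075. Cox7a2 and the muscle form Cox7a1 differed by -0.015 ± 0.10 and 0.0025 ± 0.081, and the related Cox7a2l by -0.078 ± 0.077. Cox7b and Cox7b2 differed by -0.084 ± 0.078 and 0.072 ± 0.070, and Cox8c by 0.012 ± 0.096. Cox5a, a subunit of the matrix side, differed by -0.064 ± 0.059. The signs of Cox4i1, Cox6a1, Cox6b2, Cox7a1, Cox7a2 and Cox8c changed in some alternative fits.

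**Figure D4:**
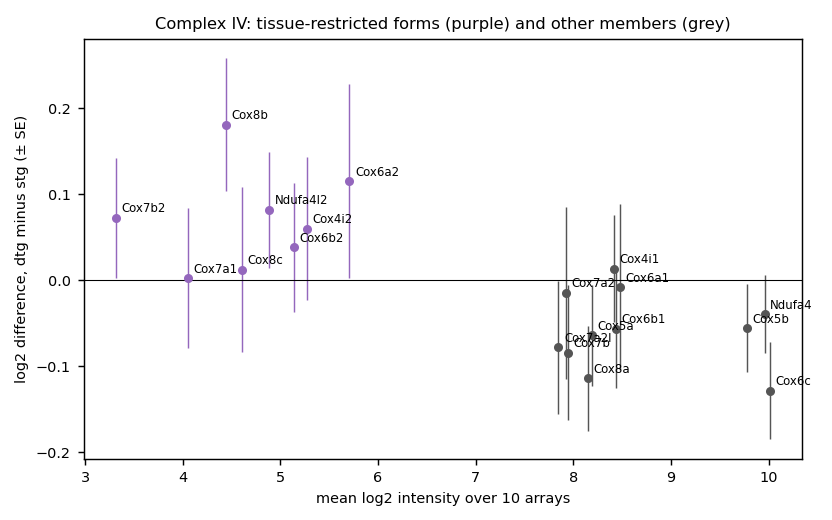
Log2 difference between dtg and stg embryos (± SE, n = 5 per group) against the mean log2 intensity over the 10 arrays for the 19 genes shown with complex IV, with tissue-restricted forms in purple and the others in grey. The 8 purple points lie above 0 at intensities up to 5.71, and 10 of the 11 grey points lie below 0.

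**Figure D5:**
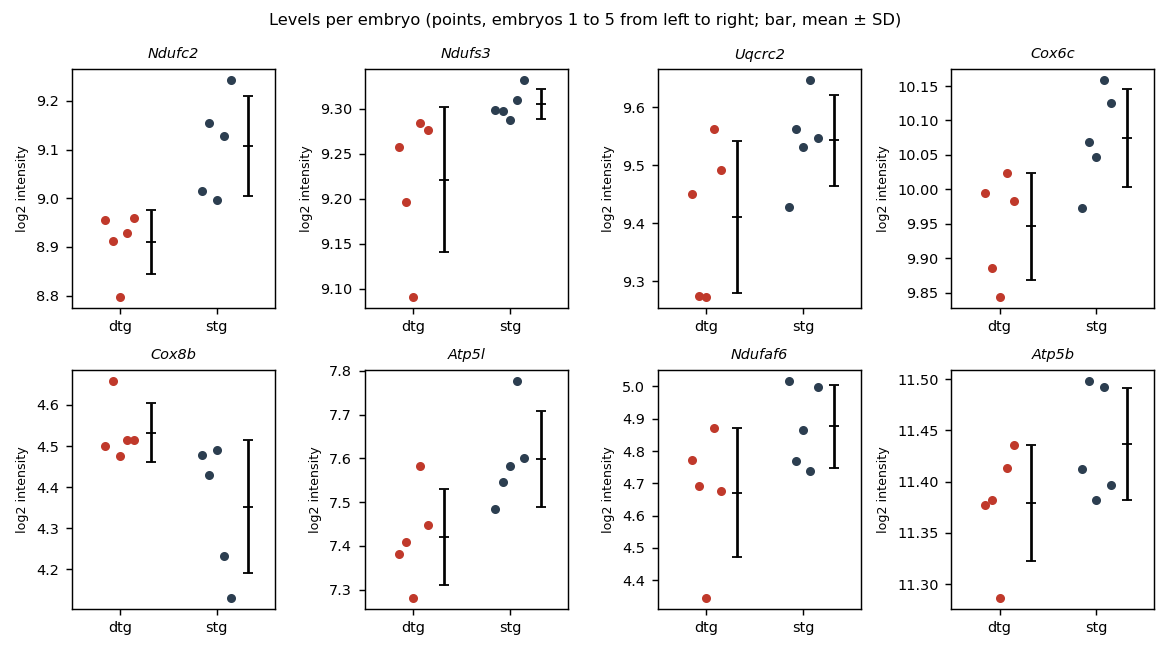
Log2 intensity per embryo of 8 genes, with points for embryos 1 to 5 from left to right and bars for the group mean ± SD (n = 5). Ndufc2 and Ndufs3 show no overlap between the groups, and transgenic embryo 3 is the lowest of its group in all 8 panels.

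Promoter sequences show which of these genes carry the letters of factors known to drive respiratory genes. RefSeq sequences of build GRCm38.p6 were matched for 70 of the 85 members, each running from 250 bases before to 50 after the first listed start. They were searched on both strands for GCGCA, any base and GCGC (NRF1), CCGGAAG (ETS factors such as GABPA), AAGATGGC (YY1) and GTAAACA (FOXO). The NRF1 letters stood in 15 members (21.4%), against 4.78% of 27025 promoters of the same length. Those promoters were not limited to measured genes, nor matched to the members in intensity or base composition. The ETS letters also stood in 15 members (21.4%), against 9.12%, and the YY1 letters in 9 (12.9%), against 2.88%, of which 7 belonged to complex I. The FOXO letters stood in 2 members (2.86%), against 3.55%. Of the 55 matched members with a lower mean in dtg, 21.8% held the NRF1 letters, and of the 15 with a higher mean 20%. Such matches are descriptions of letters in a window, not binding sites.

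The 150 bases before the start are given for 6 members: Ndufc2, Ndufs3 and Atp5l, whose values were described first, Cox6a1, which holds both the NRF1 and the ETS letters, and the Cox8a and Cox8b pair of common and muscle form. Capitals mark the searched letters. The searched window is longer than the stretch shown: Atp5l and Cox8a each hold 2 ETS matches not wholly inside it, and Ndufs3 holds 1 more ETS match and Cox6a1 1 more NRF1 match beyond it. Ndufc2 and Cox8b hold no match in the whole window.
Ndufc2 (chr7:97399853-97400002, plus strand): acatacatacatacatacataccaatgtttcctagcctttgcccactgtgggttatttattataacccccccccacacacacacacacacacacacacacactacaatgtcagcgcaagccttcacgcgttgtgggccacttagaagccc
Ndufs3 (chr2:90904722-90904871, minus strand): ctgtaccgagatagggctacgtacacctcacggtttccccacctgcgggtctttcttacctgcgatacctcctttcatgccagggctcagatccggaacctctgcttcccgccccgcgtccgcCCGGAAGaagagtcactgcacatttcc
Atp5l (chr9:44920743-44920892, minus strand): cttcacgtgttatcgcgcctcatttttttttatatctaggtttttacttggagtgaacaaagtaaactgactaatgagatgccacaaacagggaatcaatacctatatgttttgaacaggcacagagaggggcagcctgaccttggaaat
Cox6a1 (chr5:115348959-115349108, minus strand): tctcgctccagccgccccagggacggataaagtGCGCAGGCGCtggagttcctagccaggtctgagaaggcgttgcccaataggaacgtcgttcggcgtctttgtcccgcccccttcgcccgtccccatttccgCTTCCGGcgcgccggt
Cox8a (chr19:7217617-7217766, minus strand): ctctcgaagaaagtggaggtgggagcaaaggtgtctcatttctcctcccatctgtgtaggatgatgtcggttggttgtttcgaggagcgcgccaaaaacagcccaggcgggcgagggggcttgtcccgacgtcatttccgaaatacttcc
Cox8b (chr7:140900447-140900596, minus strand): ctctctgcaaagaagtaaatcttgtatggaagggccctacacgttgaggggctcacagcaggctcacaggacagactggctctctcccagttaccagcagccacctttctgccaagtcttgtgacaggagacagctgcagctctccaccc
In Ndufs3 the ETS letters begin 27 bases before the start. In Cox6a1 the NRF1 letters begin 117 bases and the ETS letters, on the opposite strand, 16 bases before it. Cox6c had no entry. No matched tissue-restricted form, 4 of the 8, held any of the 4 motifs in the searched window.

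Of the genes of the factors behind the first 3 motifs, Nrf1 differed by -0.027 ± 0.063, Gabpa by -0.069 ± 0.057 and Yy1 by -0.059 ± 0.054. Of 14 regulators of mitochondrial biogenesis 11 were lower and 3 higher, with a median of -0.051, and none passed. The lowest mean of this list, 6.75, was again that of transgenic embryo 3. Tfam, which packages and transcribes mitochondrial DNA, read 7.10, 7.17, 6.94, 7.29 and 7.15 in transgenic and 7.38, 7.15, 7.20, 7.59 and 7.45 in control embryos. The groups overlapped, and the difference was -0.22 ± 0.091 (limma adjusted p = 0.608). Polg, the mitochondrial DNA polymerase, differed by -0.14 ± 0.065 (adjusted p = 0.676).

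None of the lists of other pathway genes held a gene that passed in limma, and the medians of these lists were small as well. Single genes such as Slc25a5, at -0.27, and Tfam differed by more than any member. At an unadjusted p below 0.05 there were 2 of 31 assembly factors and 2 of 15 genes of the tricarboxylic acid cycle list. The same held for 1 of 14 regulators of biogenesis and 1 of 7 carriers and channels, beside 7.58% of all genes. Of the 4 subunits of complex II 3 were lower, with a median of -0.098, led by Sdhd at -0.14 ± 0.068 and Sdhb at -0.11 ± 0.056. Cycs, cytochrome c itself, differed by -0.098 ± 0.094 and Cyc1, the cytochrome of complex III, by -0.028 ± 0.049. Of 15 measured genes of the tricarboxylic acid cycle and pyruvate dehydrogenase 12 were lower, with a median of -0.065. Over all genes 51.9% were lower. Transgenic embryo 3 had the lowest mean of all 10 embryos in this list, at 8.50, in complex II, at 8.45, and in the carriers and channels, at 9.63. It was not the lowest in the 31 assembly factors. No values without that embryo are given for these lists. Suclg1, of succinyl-CoA ligase, differed by -0.20 ± 0.077 (limma adjusted p = 0.572), whereas Pdha1, of pyruvate dehydrogenase, differed by 0.17 ± 0.072 (adjusted p = 0.636). Of 31 measured assembly factors with other names 16 were lower and 15 higher. The 2 smallest p-values there were those of the ATP synthase factor gene Atpaf2, at -0.19 ± 0.070, and the complex III factor gene Uqcc3, at 0.17 ± 0.065 (adjusted p = 0.562 and 0.585).

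Among 7 measured carriers and channels, Slc25a5, which exchanges ATP and ADP across the inner membrane, had no overlap between the groups. It read 9.58, 9.61, 9.50, 9.79 and 9.82 in transgenic and 9.99, 10.08, 9.85, 9.89 and 9.85 in control embryos. Every transgenic embryo was below every control, as in 0.622% of all genes, and the difference was -0.27 ± 0.076 (limma adjusted p = 0.335). Slc25a3, the phosphate carrier, differed by -0.095 ± 0.069 (adjusted p = 0.824). The genes of the mitochondrial DNA were not analysed here.

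Where a member had more than 1 probe set, these mostly agreed in direction. This held for 16 of 17 such genes, with 42 probe sets among them. The exception was Atp5pb, the b subunit of the ATP synthase stalk, at -0.082 ± 0.096 for the brighter probe set and 0.026 ± 0.053 for the other. With every probe set tested on its own, 88 of 110 member probe sets (80%) were lower, beside 53.1% of all probe sets, and none passed in limma. An unadjusted p below 0.05 was found for 7 (6.36%), beside 6.51% of all probe sets. Of the 7, 6 were lower, and they included both Cox6c probe sets and 2 of the 6 of Atp5l.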

How the data were processed

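RNA of 10 embryos, 5 titled dtg and 5 stg, was hybridized to 1 array each. The deposited table holds log2 intensities of 35556 probe sets, computed by the authors; per the submitters' processing notes the software was Affymetrix Expression Console. Its version and settings are not given in the sources used here. Array medians are nearly equal, and no further normalization was applied. The platform's gene table named 1 gene for 21789 probe sets, several for 1621 and none for 12146, and symbols were updated through gene identifiers with RefSeq GRCm38.p6. Each gene was read from its probe set with the highest mean over the arrays.

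A linear model with the group as its only term was fitted to all 19938 genes in limma 3.58.1 under R 4.3.3, with moderated variances. Two-sided p-values were adjusted by Benjamini-Hochberg and read at 0.05; the code was tested on simulated data. Embryos are separate animals but share dams.

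Named members were those with an unadjusted p below 0.05; in each complex the 2 smallest p-values and the extreme differences; the tissue forms of complex IV; and core subunits. In other pathway lists the 2 smallest p-values were named. Ndufs3, Nrf1, Gabpa, Yy1, Atp5pb and the forebrain genes were added with values seen. Foxo3 and Camk2a were added as well. Members and lists were chosen with earlier results of these data known. Other fits dropped 1 embryo at a time, used the replicate number as a block, weighted the arrays, used a robust variance prior that follows intensity, centred or quantile-normalized the arrays, dropped genes under the 40th percentile, or treated probe sets by their mean or singly.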

Additional observations from a re-analysis of the deposited data

Results flagged for a closer look

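In 80 groups of 5 embryos (34 named members, 5 complexes and all members together, in each genotype) the gap of the extreme embryo to its neighbour, over the whole range, was above the 5-sample critical value of 0.71 in 6. Chance gives such a gap in about 5% of groups. Transgenic embryo 3 was low for Cox7a2l, at 7.56 with the other 4 between 7.85 and 7.91, and for Ndufv2, at 8.47 with the others between 8.60 and 8.65. Without it the difference of Cox7a2l was -0.015. Transgenic embryo 4 was low for Cox8a, at 7.92 with the others between 8.10 and 8.16. Transgenic embryo 2 was high for Cox8b, at 4.66 with the others between 4.48 and 4.52. Control embryo 5 was low for Cox5a, at 8.09 with the others between 8.22 and 8.28. Control embryo 4 was low for Cox6b1, at 8.31 with the others between 8.49 and 8.53.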

How the results depend on the processing

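No member passed an adjusted p of 0.05 in limma in any of the 18 alternatives, where the smallest adjusted p of a member lay between 0.32 and 0.72. The median difference over members stayed negative, from -0.058 to -0.016 when 1 embryo was left out (the last without transgenic embryo 3) and from -0.052 to -0.028 otherwise. Members at an unadjusted p below 0.05 numbered 2 to 9 when 1 embryo was left out, with 9 (10.6%, beside 9.53% of all genes) without transgenic embryo 4 and 2 (2.35%) without transgenic embryo 3 or control embryo 5, beside 5.72% and 6.83%. They numbered 7 with median centring, where all genes gave 7.82%, and 7 of 110 (6.36%) with every probe set on its own, beside 6.51%. After quantile normalization 58 of 85 members were lower, and 68 after median centring, against 65. Both steps move all genes, and the share of all genes lower after them is not given here. Over all genes the count of calls ran from 7 to 58 when 1 embryo was left out and was 39 with array weights, 9 with every probe set on its own and 2 with the replicate block. With that block, 3 of 85 members had an unadjusted p below 0.05, beside 8% of all genes, and none passed. The labels state no pairing: deviations of same-numbered embryos correlated at -0.25 to 0.24, above 0.1 in 1 of 5 cases, and 0 of 5 transgenic embryos correlated best with the control of their own number.

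Of 34 named members 24 kept their sign throughout. With array weights Cox7a1 was -0.0058, Ndufs1 0.0031 and Uqcrh 0.0068. With quantile normalization Atp5a1 was 0.020, Cox6a1 0.0017, Ndufs1 0.013, Uqcrc1 0.0099 and Uqcrh 0.0026. With median centring Cox7a1 was -0.010 and Cox8c -0.00054. When 1 embryo was left out, Cox4i1 ran from -0.023 to 0.057, Cox6a1 from -0.083 to 0.055, Cox6b2 from -0.020 to 0.071, Cox7a1 from -0.060 to 0.045, Cox7a2 from -0.063 to 0.056, Cox8c from -0.033 to 0.080, Ndufs1 from -0.035 to 0.031, Uqcrc1 from -0.042 to 0.0043 and Uqcrh from -0.026 to 0.013. The cause was not tested. Dim members, such as Cox7a1 and Cox7b2 below the lower quartile of intensity, have no detection call to judge them by.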

Other observations

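The highest values were spread more evenly over the embryos than the lowest. Control embryo 4 had the highest of the 10 values in 19 of 85 members, control embryo 2 in 12 and control embryos 1 and 5 in 11 each, while transgenic embryo 3 and control embryo 3 had it in 2 each. Control embryo 3 had the lowest median deviation of the controls, -0.025, with 61 of 85 members below the control mean. In intensity 55 members lay above the upper quartile of all genes, 20 between it and the median, 8 between the median and the lower quartile and 2 below that. Of the 55 brightest 89.1% had a lower mean in dtg, beside 55.5% of all genes in that band. For the next 20 it was 70%, beside 50.6%. Transgenic embryo 3 was the lowest of all embryos in 60% of the 55.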
